A study of Mus musculus with 6 samples.

Results

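The 9 genes described here encode growth factors of the EGF family and the ERBB receptors that bind them. The 6 ligands are Areg (amphiregulin), Ereg (epiregulin), Hbegf (heparin-binding EGF-like growth factor), Tgfa (transforming growth factor alpha), Btc (betacellulin) and Nrg1 (neuregulin 1), and the 3 receptors are Egfr, Erbb2 and Erbb3. They were chosen by name from the 26264 gene symbols listed in every library, and the family was selected on a measured value, because Areg was among the largest increases after 48 h of FGF8. The FGF8 contrast at D0 is therefore given for these genes as a description, without a test, and the main tests are kept to other libraries or to other contrasts.

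RNA was sequenced from immortalized mouse brown preadipocytes (iBAT), a cell line from the stromal vascular fraction of brown fat of Bl6N wild-type mice that carries the SV40 large T antigen. Cells were kept for 48 h with 5.5 nM FGF8 or left untreated, and were harvested directly (D0) or after FGF8 had been removed and adipogenic differentiation started (D3 and D7). Each of the 6 conditions is 1 library, so that no condition has a replicate, all 6 libraries come from the same immortalized line, and the FGF8 libraries of D3 and D7 show cells that had met FGF8 only beforehand. The 2 differentiation days also differ from D0 in medium: an induction cocktail for 2 days and differentiation medium after it, and the study's methods count the last harvest as day 9 after FGF8 withdrawal where the labels say D7. The growth text in the labels speaks of primary white preadipocytes, while the titles, the cell type and the design text give the immortalized brown line, and these were followed.

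EGF family ligands are made as membrane-spanning precursors and are released when a metalloprotease of the ADAM family cuts them at the cell surface. Amphiregulin and transforming growth factor alpha bind EGFR, epiregulin, betacellulin and heparin-binding EGF-like growth factor bind EGFR and ERBB4, and neuregulin 1 binds ERBB3 and ERBB4. ERBB2 has no known ligand and acts as the partner of the other receptors, and ERBB3 has little kinase activity of its own and signals through its partners. Signals through EGFR are known to keep fibroblasts and preadipocytes dividing, and neuregulins are known for exchanges between tissues and nerves.

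The libraries held between 16403254 and 38551551 counts, so that a gene with few counts is measured less firmly in the D0 libraries than in the deeper D7 libraries. Normalized counts below are counts divided by a size factor for each library. Fold changes are on the log2(normalized count + 1) scale, as FGF8 minus untreated on the same day, and the range printed after each is its 95% counting interval (Clopper-Pearson), which covers counting error only and no difference between cultures. A gene is called higher or lower on a day at a difference of 2-fold or more when both libraries average 20 normalized counts or more. The adipocyte markers followed the labels, while the summed preadipocyte or fibroblast markers did not fall with differentiation. The summed normalized count of 6 adipocyte markers was between 399.4 and 553.8 at D0 and between 210091 and 464599 at D3 and D7. The sum of 6 preadipocyte or fibroblast markers was 306181, 515234 and 530841 in the untreated libraries of D0, D3 and D7. It was 101194, 162794 and 143041 in the FGF8 libraries. Its members did not move alike. In untreated cells Col3a1 had 129678 normalized counts at D0 and 338093 at D7, and Dlk1 had 9414 and 375.5. Col1a1 was also higher at D7 than at D0 in untreated cells, and Pdgfra, Pdgfrb and Ly6a were lower. In bulk RNA, fewer cells of a type and less RNA per cell cannot be told apart.

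Amphiregulin was almost silent in 5 of the 6 libraries and abundant in the sixth. Areg (ENSMUSG00000029378) lies on chromosome 5 at 91287451 to 91296291 on the plus strand of GRCm39, in 6 exon blocks. It had 4, 1 and 6 counts in the untreated libraries of D0, D3 and D7, and 564, 0 and 4 counts in the FGF8 libraries of the same days. In normalized counts this was 5.88, 1.27 and 4.26 against 722.0, 0 and 3.25. The D0 library of FGF8-treated cells thus stood alone. The log2 fold change at D0 was 6.72 (5.58 to 8.82), or 105-fold, and ranked 5 among the 12657 genes that average 20 or more normalized counts on that day. At D3 both libraries were at or under the floor of 3 counts and no fold is given. At D7 the log2 fold change was -0.31 (-2.66 to 1.69), a difference that cannot be seen at this depth. Within the FGF8 libraries, Areg at D3 was at least 343-fold lower than at D0, with its count of 0 set to the floor of 3 counts in that library.

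The sequence before the Areg start is shown because Areg had the largest fold change among the 9 genes. It covers 243 bases of the plus strand, chr5:91287208-91287450 in GRCm39, was taken from RefSeq (a table built on GRCm38.p6) and occurs once on that chromosome of GRCm39. The capitals mark the cAMP response element TGACGTCA, 54 to 47 bases before the annotated start, and the TATA box letters TATAAA, 24 to 19 bases before it.
Areg promoter: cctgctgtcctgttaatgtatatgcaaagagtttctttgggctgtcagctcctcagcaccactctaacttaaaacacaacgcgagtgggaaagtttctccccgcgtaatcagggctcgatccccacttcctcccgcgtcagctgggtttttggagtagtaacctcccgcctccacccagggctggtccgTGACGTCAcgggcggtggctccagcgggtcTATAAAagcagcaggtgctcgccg

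Of 32851 promoters in the RefSeq table, searched over the 250 bases before the start on both strands, 1.55% held TGACGTCA, and 7.59% held TATAAA on the strand of the gene. The AP-1 letters TGACTCA, found in 4.46% of promoters, the ETS letters CCGGAAGT, found in 2.88%, and the Sp family letters GGGGCGGGG, found in 10.4%, were not in the Areg window. Windows were matched for Areg, Btc, Egfr, Erbb2 and Tgfa among the 9 genes, and the other hit in them was the Sp letters in Tgfa, 17 to 9 bases before the start. A match to these letters is a description of the sequence and does not show that a factor binds there.

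**Figure D1:**
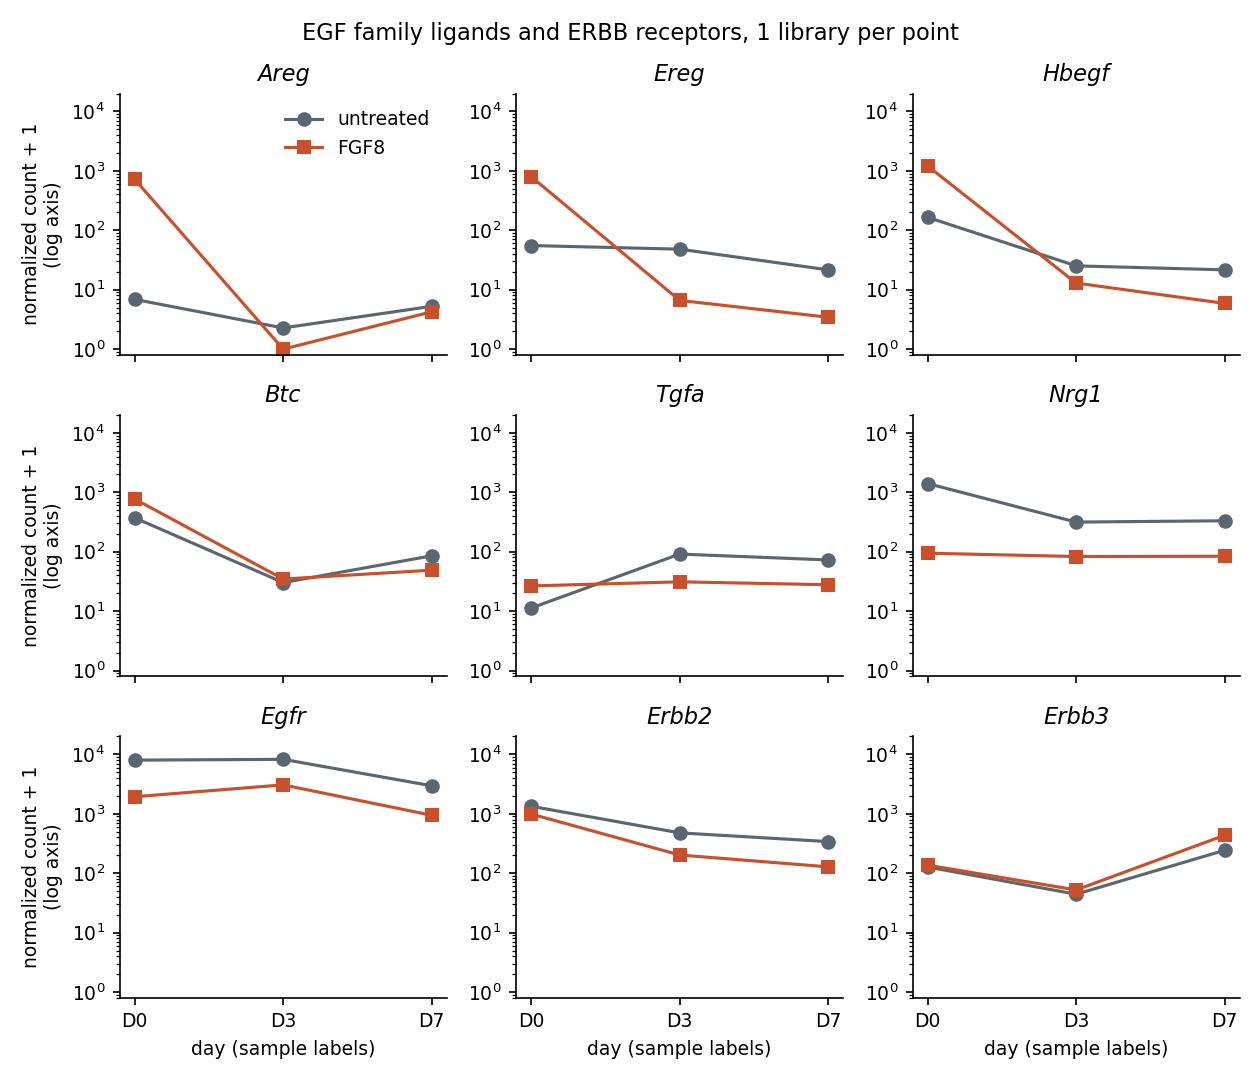
Normalized count + 1 (vertical log axis) of the 9 genes at D0, D3 and D7 (horizontal axis), 1 panel per gene, with 1 point per library, grey circles for untreated and orange squares for FGF8-treated cells, and lines that join the days of a treatment. Areg, Ereg, Hbegf and Btc have their highest point in the FGF8 library at D0, and Nrg1 and Egfr lie lower with FGF8 on all 3 days.

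Epiregulin and heparin-binding EGF-like growth factor shared the high value in the FGF8 library at D0, and both were lower in the FGF8 library than in the untreated one on the later days. Ereg had 54.3, 47.1 and 20.6 normalized counts in the untreated libraries of D0, D3 and D7, and 800.1, 5.62 and 2.44 in the FGF8 libraries. Its log2 fold change was 3.86 (3.40 to 4.40) at D0, -2.86 (-4.38 to -1.94) at D3 and -2.65 (-5.44 to -1.39) at D7. Ereg with FGF8 was thus 14.5-fold higher before differentiation and lower on both later days, although the D7 value rests on 3 counts against 29 and is under the filter on low counts.

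Hbegf had 164.5, 24.2 and 20.6 normalized counts in untreated cells and 1211, 11.9 and 4.88 in FGF8-treated cells. The log2 fold change was 2.87 (2.60 to 3.18) at D0, -0.96 (-2.05 to 0.0038) at D3 and -1.88 (-3.64 to -0.78) at D7. The D3 interval included 0, and both later pairs averaged under 20 normalized counts and could not be called.

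Betacellulin and transforming growth factor alpha showed smaller differences. Btc had 371.6, 29.3 and 84.5 normalized counts in untreated cells and 772.0, 33.7 and 48.0 in FGF8-treated cells. The differences were 1.05 (0.84 to 1.27) at D0, 0.20 (-0.54 to 0.99) at D3 and -0.80 (-1.29 to -0.35) at D7. The highest Btc value was again that of the FGF8 library at D0, but the untreated library of that day came next.

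Tgfa was low at D0 and higher later in untreated cells, and differed little between days in FGF8-treated cells. It had 10.3, 90.4 and 71.7 normalized counts in untreated cells and 25.6, 30.2 and 26.8 in FGF8-treated cells. The log2 fold change was 1.24 (0.016 to 2.80) at D0, from 7 and 20 counts and under the filter, -1.55 (-2.16 to -1.02) at D3 and -1.39 (-2.03 to -0.84) at D7. Both differentiated FGF8 libraries lay below both differentiated untreated ones.

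Neuregulin 1 went the other way from amphiregulin at D0. Nrg1 had 1403, 314.4 and 330.8 normalized counts in untreated cells and 93.5, 82.1 and 82.9 in FGF8-treated cells, so that all 3 FGF8 libraries lay below all 3 untreated ones. Its log2 fold change was -3.89 (-4.27 to -3.56) at D0, which is 14.9-fold lower, -1.92 (-2.27 to -1.61) at D3 and -1.98 (-2.32 to -1.68) at D7. In untreated cells Nrg1 was 4.45-fold lower at D3 than at D0, whereas in FGF8-treated cells the 3 days lay between 82.1 and 93.5.

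The receptors were led by Egfr, which had 7980, 8232 and 2953 normalized counts in untreated cells and 1933, 3060 and 940.6 in FGF8-treated cells. The log2 fold change was -2.04 (-2.13 to -1.96) at D0, -1.43 (-1.48 to -1.37) at D3 and -1.65 (-1.75 to -1.56) at D7. On each day the FGF8 library was the lower, by 4.13-fold at D0, although the FGF8 library of D3 did not lie below the untreated library of D7.

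Erbb2 had 1337, 476.0 and 339.3 normalized counts in untreated cells and 989.6, 201.5 and 126.8 in FGF8-treated cells. FGF8 minus untreated gave -0.43 (-0.57 to -0.29) at D0, -1.24 (-1.47 to -1.01) at D3 and -1.41 (-1.69 to -1.16) at D7. The difference at D0 was under the 2-fold rule, and those at D3 and D7 passed it.

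Erbb3, the receptor of neuregulins, had 126.3, 43.3 and 242.1 normalized counts in untreated cells and 135.7, 51.2 and 434.1 in FGF8-treated cells. On the log2 scale the difference was 0.10 (-0.32 to 0.53) at D0, 0.24 (-0.36 to 0.88) at D3 and 0.84 (0.64 to 1.04) at D7. The 2 highest values were those of D7 in both treatments, and the D7 difference between treatments was 1.79-fold, under the rule of 2-fold.

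Counted over the family, 8 of the 9 genes passed the filter on low counts at D0, where Areg, Ereg, Hbegf and Btc were higher with FGF8 and Nrg1 and Egfr were lower. Over all 12657 genes, 7.27% were called higher and 10.8% lower on that day. As the family was picked for Areg in this same contrast, nothing is read from these counts. At D3, 7 genes passed the filter. None was called higher, against 3.8% of 12892 genes, and 5 were called lower, namely Ereg, Tgfa, Nrg1, Egfr and Erbb2, against 12.1%. At D7, 6 genes passed. None was called higher, against 1.12% of 13070 genes, and Tgfa, Nrg1, Egfr and Erbb2 were called lower, against 8.74%. Tgfa, Nrg1, Egfr and Erbb2 were thus called lower on both D3 and D7.

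**Figure D2:**
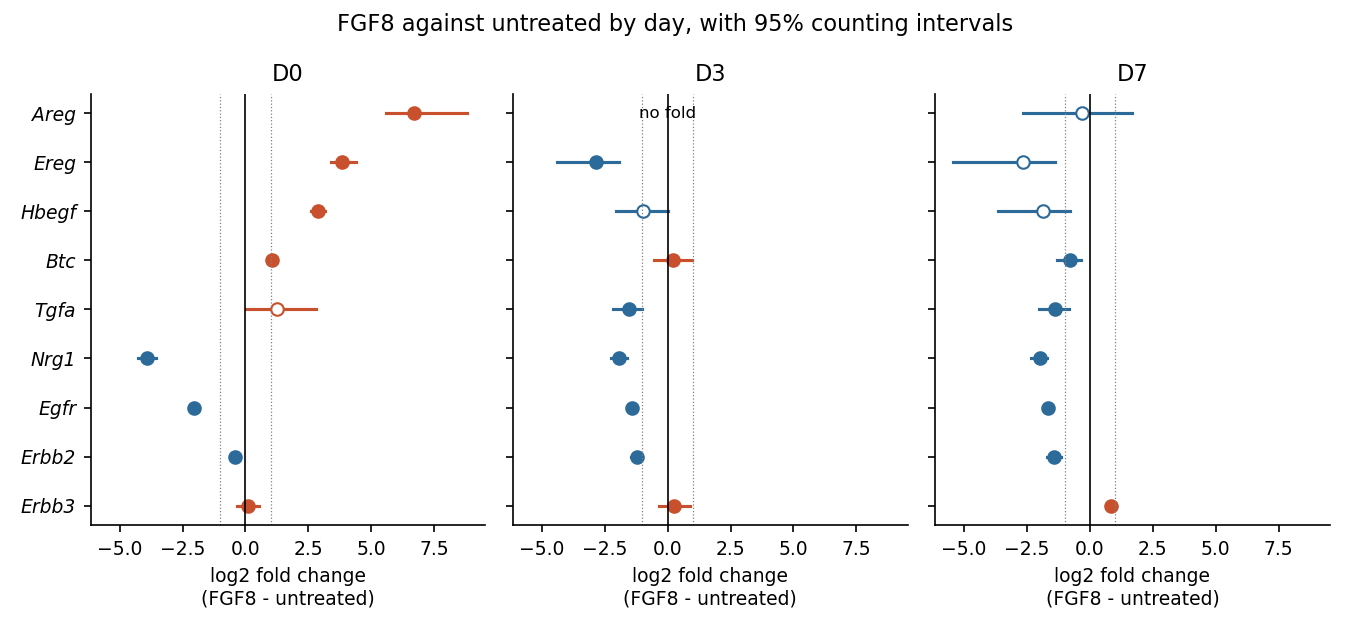
Log2 fold change of FGF8 against untreated (horizontal axis) for each gene at D0, D3 and D7, with lines for the 95% counting intervals, orange above and blue below 0, open circles for pairs that average under 20 normalized counts and dotted lines at 2-fold. Ereg goes from 3.86 at D0 to -2.86 at D3, Egfr and Nrg1 stay below 0 on every day, and Areg has no value at D3, where both libraries were at or under 3 counts.

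The effect of FGF8 that D3 and D7 share was tested without the D0 libraries, with the quasi-likelihood test of edgeR and the day as a block, so that the 2 days stood in for replicates with 1 residual degree of freedom. The p-values therefore set the mean FGF8 effect of the 2 days against how far the response differed between them. The 1 degree of freedom is before moderation: edgeR adjusts the spread of each gene with that of all genes. The difference between a gene's own 2 days is thus only part of what its effect is set against. The p-values do not cover a spread between cultures. Of 14367 genes tested, 3.96% were higher and 11.6% lower after FGF8 at an adjusted p (Benjamini-Hochberg) under 0.05. Of the 8 EGF family genes tested, 5 fell and none rose. None of them was higher at an unadjusted p under 0.05 either, and none was called higher by DESeq2. Areg had too few counts to be tested.

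By edgeR, Egfr fell by 1.57 on the log2 scale (SE 0.15, adjusted p = 0.00105) and Nrg1 by 1.99 (SE 0.25, adjusted p = 0.00209). Erbb2 fell by 1.36 (SE 0.22, adjusted p = 0.00628) and Ereg by 3.08 (SE 0.50, adjusted p = 0.00661). Tgfa fell by 1.53 (SE 0.35, adjusted p = 0.0248 by edgeR), a call that DESeq2 did not make (adjusted p = 0.0566). The genes lower in differentiated cells that had met FGF8 were thus receptors and ligands alike. For the other 3, the edgeR log2 fold change was -1.50 for Hbegf (SE 0.49, adjusted p = 0.08), -0.39 for Btc (SE 0.39, adjusted p = 0.529) and 0.58 for Erbb3 (SE 0.28, adjusted p = 0.2), and none passed. All 5 calls rest on the day block: without it no gene of 14367 was called, with 1387 at an unadjusted p under 0.05. With D0 added, the call of Egfr was kept and the other 4 were lost, and for Ereg, whose D0 difference had the opposite sign, the adjusted p was 0.872. That fit takes in the D0 contrast through which the family was chosen, so nothing is read from the kept call of Egfr.

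The preadipocyte or fibroblast markers were also lower in the FGF8 libraries on all 3 days, with sums of 101194 against 306181 at D0, 162794 against 515234 at D3 and 143041 against 530841 at D7. The sum of the 4 endothelial markers was lower too, at 71.7 against 1620 at D0, 34.4 against 210.0 at D3 and 35.8 against 199.5 at D7. Most of these sums came from Kdr and Tek, with Kdr at 7.68 against 1288 normalized counts at D0, while Pecam1 and Cdh5 had 17 counts or fewer in every library. At D0 these went the other way, with 10 counts with FGF8 against 1 for Pecam1 and 7 against 3 for Cdh5. Cdh5 was also higher with FGF8 at D7, with 3 counts against 0. The part of either marker list in the lower Egfr and Nrg1 values was not tested.

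**Figure D3:**
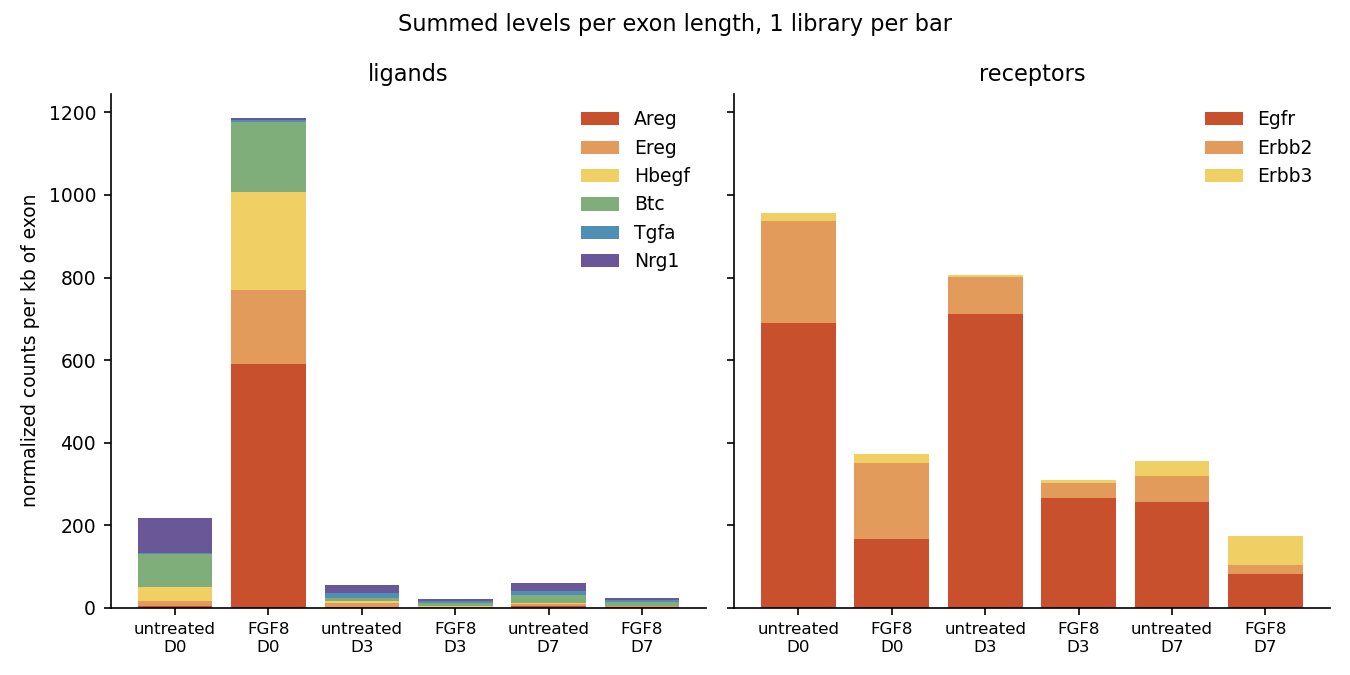
Normalized counts per kb of exon (vertical axis), stacked by gene, for the 6 ligands (left) and the 3 receptors (right), with 1 bar per library. The ligand bar of FGF8-treated cells at D0 reaches 1187, with Areg as its largest part, and the receptor bars are lower with FGF8 on each day, with Egfr as the largest part in all but the FGF8 library of D0.

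To compare levels between genes, normalized counts were divided by the exon length of each gene in kilobases. In untreated cells at D0, Egfr was highest at 690.8 per kb, followed by Erbb2 at 246.5, with Nrg1 at 84.1 and Btc at 81.7 indistinguishable by their counting intervals. Hbegf came next at 32.2, and Areg stood at 4.81. Untreated preadipocytes thus held far more receptor than ligand message. In FGF8-treated cells at D0, Areg was highest at 590.9 per kb and Hbegf second at 237.0. Erbb2 at 182.5, Ereg at 179.7, Btc at 169.7 and Egfr at 167.3 followed, each with an interval that overlapped that of its neighbour in this order. Nrg1 was at 5.60 and Tgfa at 3.75, and these also overlapped.

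Summed over the 6 ligands, the level per kb at D0 was 216.4 in untreated and 1187 in FGF8-treated cells, and over the 3 receptors it was 957.3 and 371.4. Areg made 2.22% of the ligand sum in untreated and 49.8% in FGF8-treated cells, while Nrg1 made 38.8% and 0.472%. The makeup of the receptor sum differed as well, with Egfr at 72.2% in untreated and 45.1% in FGF8-treated cells. Since Areg chose the family in this contrast, these sums are a description. The exon length of each gene joins the exons of all its annotated isoforms, which can lower its level per kb by construction. This length was longest for Nrg1 (16689 bases), followed by Egfr (11553 bases). The order of genes and their shares of the sums depend on these lengths.

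In differentiated cells the ligand sum was 54.8 per kb at D3 and 61.0 at D7 in untreated, and 20.3 and 23.6 in FGF8-treated cells. The receptor sum was 807.2 and 356.6 against 310.2 and 173.6. The sums of both roles were thus lower with FGF8 on both days. Egfr stayed the leading gene in all 4 libraries. Erbb3 was 10.8% of the receptor sum at D7 in untreated cells and 39.6% in FGF8-treated cells, where it stood at 68.8 per kb between Egfr at 81.4 and Erbb2 at 23.4.

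Over differentiation, Hbegf, Btc, Egfr and Erbb2 ended lower than they began and Erbb3 ended higher, by a test over both treatments. The days were compared in all 6 libraries with treatment as a block in edgeR (2 residual degrees of freedom before moderation). The 2 treatments thus stood in for replicates, and a time course that differs between treatments counts as error. From D0 to D3, 26.2% of 14569 genes rose and 19.8% fell at an adjusted p under 0.05. Of the 8 EGF family genes tested, 4 fell and none rose, also at an unadjusted p under 0.05. DESeq2 called none higher either. From D0 to D7, 29.2% of all genes rose and 24.8% fell, and of the 8 EGF family genes 1 rose and 4 fell.

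Hbegf fell by 5.11 on the log2 scale from D0 to D3 (edgeR adjusted p = 0.0334) and by 5.52 from D0 to D7 (adjusted p = 0.0245). Btc fell by 4.09 (edgeR adjusted p = 0.00659) and by 3.02 (adjusted p = 0.00901). Erbb2 fell by 1.85 (edgeR adjusted p = 0.0097) and by 2.44 (adjusted p = 0.00433). Both treatments took part in each of these, as the untreated libraries alone gave log2 differences from D0 to D7 of -2.94 for Hbegf, -2.12 for Btc and -1.97 for Erbb2. Egfr fell by 1.21 from D0 to D7 (edgeR adjusted p = 0.00855), while its change to D3 was 0.41 (adjusted p = 0.148).

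Erbb3 first fell and then rose past its starting level. It fell by 1.42 from D0 to D3 (edgeR adjusted p = 0.026) and was 1.36 higher at D7 than at D0 (adjusted p = 0.0222). Between D7 and D3, Erbb3 differed by 2.78 and Egfr by -1.62, both at an adjusted p of 0.0671 in edgeR. In that contrast none of the 8 genes was called, 2 of them (Erbb3 and Egfr) had an unadjusted p under 0.05, and DESeq2 called both. The contrast called few genes in all, 0.0618% higher and 0.00686% lower, with 3110 genes at an unadjusted p under 0.05. The 4 Schwann cell markers, a source of Erbb3 in nerve, summed to between 76.4 and 174.8 normalized counts, with Gfra3 at 1 count or fewer, and were highest in the same library as Erbb3. Their part in the Erbb3 values was not tested.

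For Ereg, Nrg1 and Tgfa the time courses of the treatments differed, and no change over differentiation passed the edgeR test. The log2 change from D0 to D7 was -5.53 for Ereg (edgeR adjusted p = 0.0816), -1.25 for Nrg1 (adjusted p = 0.114) and 1.22 for Tgfa (adjusted p = 0.251). In untreated cells alone it was -1.36 (-2.15 to -0.66) for Ereg, -2.08 (-2.25 to -1.92) for Nrg1 and 2.69 (1.71 to 4.15) for Tgfa. In FGF8-treated cells alone it was -7.86 (-10.6 to -6.80), -0.17 (-0.62 to 0.28) and 0.065 (-0.78 to 0.95). Tgfa and Nrg1 thus differed between days in untreated cells and not beyond counting error in FGF8-treated cells, and Ereg changed more where FGF8 had been given. Areg, whose D0 library chose the family, has no test over time.

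Several calls over time were lost when 1 library was left out. The fits that lost calls also called fewer of all genes, so the losses were not limited to this family. Leaving out the FGF8 library of D3 ended all 4 calls from D0 to D3 (edgeR adjusted p between 0.0619 and 0.203), and leaving out the untreated library of D3 ended those of Hbegf (0.0901) and Erbb3 (0.107). Leaving out the FGF8 library of D7 ended the call of Erbb3 from D0 to D3 (0.0559). For D7 against D0, leaving out the FGF8 library of D7 ended the calls of Hbegf (0.113), Btc (0.0517), Egfr (0.0726) and Erbb3 (0.22). Leaving out the untreated library of D7 ended those of Egfr (0.0757) and Erbb3 (0.0754), and leaving out the untreated library of D3 those of Hbegf (0.0505) and Erbb3 (0.0535). Each of these fits leaves 1 library on that day, which is assumed to vary like the others. Without the FGF8 library of D0, calls were gained, as Nrg1 fell and Tgfa rose to both days (edgeR adjusted p between 0.000224 and 0.00486). Without the untreated library of D0, Ereg (to both days) and Egfr (to D3) were also called, but the library then left at D0 is the one through which the family was chosen, and nothing is read from these calls. Without the one or the other D0 library, Egfr changed by -1.62 and Erbb3 by 2.78 between D3 and D7, as with all 6 libraries. These fits called more of all genes in that contrast. The fall of Erbb2 from D0 to D7 was kept in every alternative that was run.

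The size of the changes of Hbegf and Btc depended on the libraries too. Without the FGF8 library of D0, the log2 change of Hbegf was -2.47 to D3 and -3.14 to D7, and that of Btc was -3.27 and -2.30. Without the untreated library of D0, it was -6.82 and -7.46 for Hbegf and -4.69 and -3.72 for Btc. The fits without the untreated D0 library rest at D0 on the library through which the family was chosen, and nothing is read from their larger changes. For Hbegf, the change to D3 was -5.95 without the untreated and -4.01 without the FGF8 library of D3, and the change to D7 was -7.32 without the untreated and -3.99 without the FGF8 library of D7. For Btc, the change to D7 was -3.81 without the untreated and -2.30 without the FGF8 library of D7.

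Areg, Ereg and Btc are neighbours on chromosome 5. Together with Epgn (epigen, a further EGFR ligand), they are the 4 protein-coding genes in the 375.6 kb from 91175323 to 91550883 in GRCm39. Epgn, Ereg and Areg lie on the plus strand, with 39.1 kb between Epgn and Ereg and 45.9 kb between Ereg and Areg, and Btc lies on the minus strand 208.8 kb beyond Areg. At D0, Areg, Ereg and Btc were all higher with FGF8, by 105-fold, 14.5-fold and 2.07-fold. Epgn, between 1 and 5 counts in all 6 libraries, was too low to show a difference. Hbegf on chromosome 18 and Tgfa on chromosome 6 lie outside this cluster, and Hbegf was 7.32-fold higher at D0, so that the higher ligands were not limited to it.

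**Figure D4:**
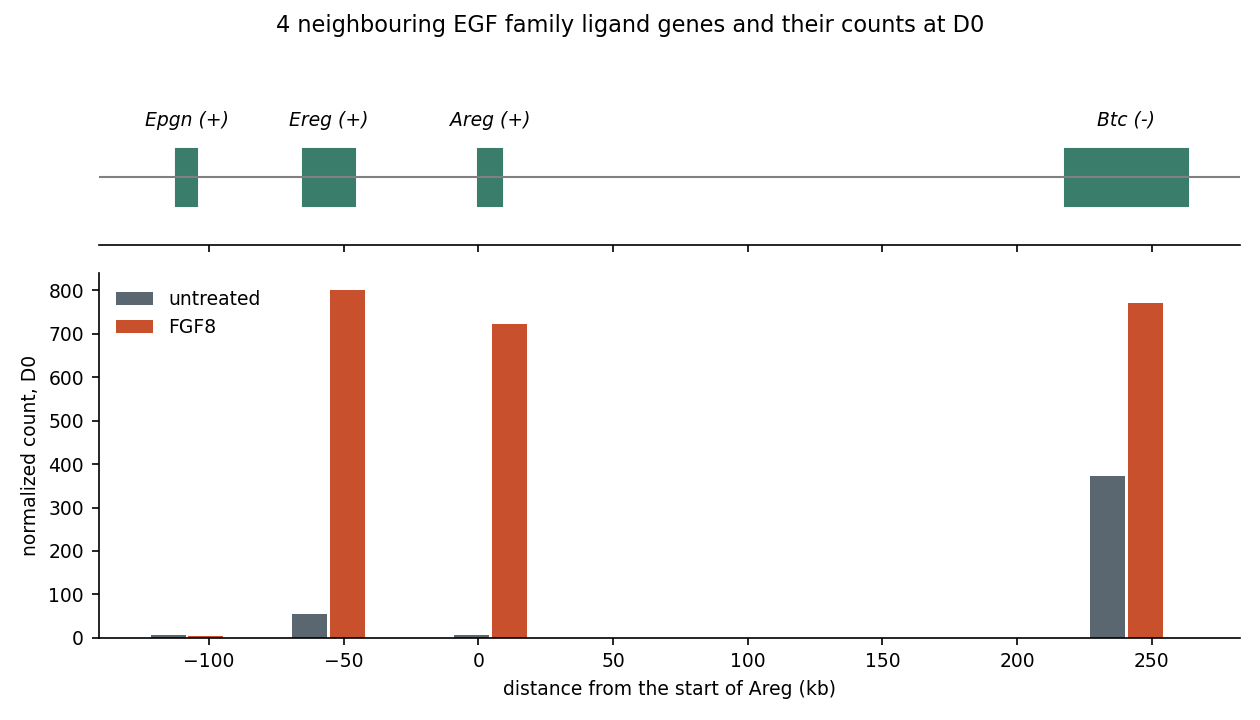
Genes of the cluster by distance from the Areg start in kb (top, with strand) and their normalized counts at D0 (bottom, 1 library per bar, grey for untreated and orange for FGF8-treated cells). The orange bars of Ereg, Areg and Btc reach 800.1, 722.0 and 772.0, above their grey bars, while both bars of Epgn are close to 0.

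Of the other 6 members of the family, Nrg3 and Erbb4 had 0 counts in all 6 libraries, so that ERBB4, a receptor of several of these ligands, was not detectable at this depth. Nrg4, known as a factor that brown adipocytes release, had 5.88, 399.6 and 1290 normalized counts in untreated cells and 10.2, 996.0 and 1440 in FGF8-treated cells. It rose from D0 to D3 by 6.41 (edgeR adjusted p = 0.00249) and to D7 by 7.49 (adjusted p = 0.00164). It was 2.49-fold (2.20 to 2.83) higher with FGF8 at D3 and 1.12-fold (1.04 to 1.19) at D7. The sum of the adipocyte markers was also higher with FGF8, 416186 against 210091 at D3 and 464599 against 391650 at D7, and its part in the Nrg4 values was not tested. Nrg4 thus had the reverse course of Nrg1 over differentiation in untreated cells, and its shared FGF8 effect did not pass (0.69, edgeR adjusted p = 0.0976).

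Nrg2, a neuregulin that binds ERBB3 and ERBB4, had 11.8, 14.0 and 62.5 normalized counts in untreated cells and 53.8, 42.8 and 117.9 in FGF8-treated cells. The log2 differences were 2.10 (1.09 to 3.50) at D0, 1.55 (0.67 to 2.69) at D3 and 0.91 (0.52 to 1.32) at D7, and its shared effect did not pass either (1.16, edgeR adjusted p = 0.0701). The 3 neuregulin genes detected therefore did not differ alike, with Nrg1 lower and Nrg2 higher in the FGF8 library of every day. By the 2-fold rule, 1 of 2 genes of this list with enough counts was higher at D0, 2 of 3 at D3 and none of 3 at D7, beside 7.27%, 3.8% and 1.12% of all genes. From D0 to D7 all 3 tested (Egf, Nrg2 and Nrg4) rose, as did 29.2% of all genes.

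Among 11 genes of ligand shedding (the ADAM metalloproteases, Bace1, and the rhomboid-like proteins Rhbdf1 and Rhbdf2 with their partner Frmd8, which carry ADAM17 to the surface), 2 were higher and 1 lower by the 2-fold rule at D0, beside 7.27% and 10.8% of all genes. At D3 2 were lower and at D7 1 was lower, beside 12.1% and 8.74% of all genes, and none was higher on either day (3.8% and 1.12%). In the shared test 3 of 11 fell and none rose (11.6% and 3.96% of all genes), with a median log2 fold change of -0.32 beside 0.051 for all genes tested. Adam19, a metalloprotease able to cut neuregulins, was higher at D0 with a log2 fold change of 1.33 (1.25 to 1.41) and lower at D3 with -1.07 (-1.16 to -0.97) and at D7 with -1.24 (-1.36 to -1.11), and fell by 1.18 in the shared edgeR test (adjusted p = 0.00182). Adam12, named after its values were seen because it differed most in this list at D0, was lower there with -2.55 (-2.72 to -2.39), or 5.85-fold, and was close to untreated at D3 with -0.023 (-0.058 to 0.013) and D7 with -0.11 (-0.16 to -0.069). Adam15 fell by 0.58 (edgeR adjusted p = 0.0367) and Bace1, which also cuts neuregulin 1, by 0.50 (adjusted p = 0.0478). Rhbdf2 was lower by 1.32 at D3 (log2 fold change -1.32, -1.76 to -0.91) and did not pass the shared test. The turn of sign after D0 seen in Ereg was thus also seen in Adam19.

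Of 10 genes that restrain the receptors, 1 was higher at D0 (7.27% of all genes) and 1 was lower at D3 (12.1%) and at D7 (8.74%), each near the share of all genes. In the shared test 3 fell and none rose (median -0.42). Errfi1, a cytoplasmic inhibitor of EGFR that EGFR signals are known to induce, had log2 fold changes of 0.86 (0.80 to 0.92), -1.18 (-1.24 to -1.13) and -1.04 (-1.12 to -0.96) on the 3 days and fell by 1.14 in the shared edgeR test (adjusted p = 0.00275). Socs5, a receptor-degrading adaptor, fell by 0.77 (edgeR adjusted p = 0.0136) and Lrig3 by 0.69 (adjusted p = 0.0356). Lrig1, a membrane protein that lowers ERBB receptor levels, was higher at D0 by 1.48 (1.41 to 1.55) and was at 0.0069 (-0.082 to 0.096) at D3.

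Of 10 adaptors next to the receptors, 1 was higher and 2 lower at D0, beside 7.27% and 10.8% of all genes. None was called at D3, beside 3.8% higher and 12.1% lower of all genes, or at D7, beside 1.12% and 8.74%, and 1 fell in the shared test (median -0.19). Gab1, a docking protein of EGFR, was lower at D0 by a log2 fold change of -1.07 (-1.26 to -0.89) and fell by 0.62 in the shared edgeR test (adjusted p = 0.037). Eps8, an EGFR substrate that links it to actin, stood at 3447 normalized counts without FGF8 and 10427 with FGF8 at D0 and between 205.7 and 436.5 in the other 4. Pik3r3, a regulatory subunit of phosphoinositide 3-kinase, was lower at D0 with -1.20 (-1.34 to -1.06). In the shared test, the share of genes that fell was thus 3 of 11, 3 of 10 and 1 of 10 in these lists, beside 11.6% of all genes.

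**Figure D5:**
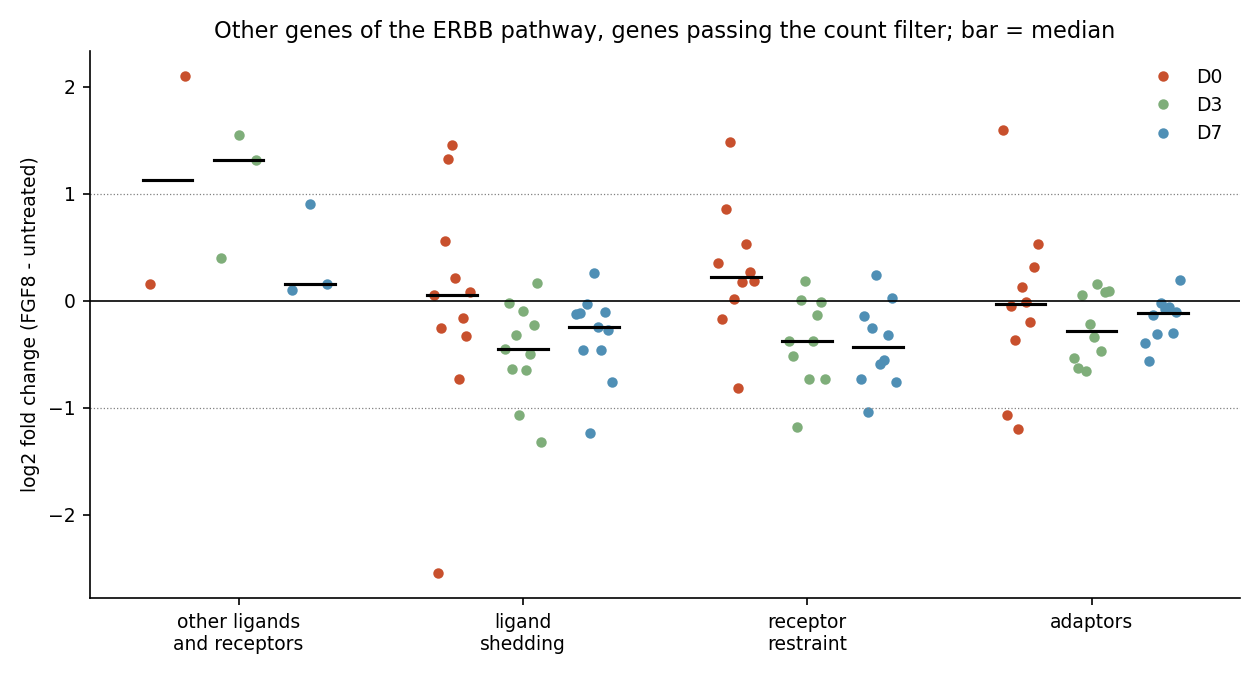
Log2 fold change of FGF8 against untreated (vertical axis) for genes of 4 lists at D0, D3 and D7, with 1 point per gene that averages at least 20 normalized counts in the pair, a black bar for the median of the points and dotted lines at 2-fold. Points at D0 spread on both sides of 0, and at D3 and D7 the medians of shedding, restraint and adaptors lie below 0 and that of the other family genes above it.

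The genes whose pattern over the 6 libraries was most like that of Areg were Sh3bgrl (r = 0.998), Otub2 (0.994), Phkb (0.988), AU040320 (0.986) and Ube2q1 (0.985), by Pearson correlation of log2(normalized count + 1) among the 11381 genes that average 100 or more. These share the 6 libraries. Areg had 6 counts or fewer in all but the FGF8 library of D0, so its r values rest mainly on that library, through which the family was chosen. For each of these genes, that library stood above the other 5. The size of the difference was far smaller: Otub2 had 1043 normalized counts there and 333.4 in the untreated library of D0, and Sh3bgrl had 9919 and 7264. For Egfr the closest were Crtc1 (0.999), Tln1 (0.995), Il17rd (0.994), Nmnat2 (0.991) and 4933431E20Rik (0.988). Il17rd, an inhibitor of FGF receptor signals, had 618.4, 686.0 and 305.2 normalized counts in untreated and 181.8, 258.3 and 82.1 in FGF8-treated cells, lower with FGF8 on every day as Egfr was.

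Other annotated genes share bases with the receptors in the count table: Eldr lies on the other strand within Egfr, with 126 to 329 counts, and Mien1 on the other strand at Erbb2, with 310 to 711. The strand setting of the counting is not given in the sources used here, so the division of reads between these pairs is uncertain. Markers of other cells were read in the same libraries. Of 5 epithelial or keratinocyte markers, 2 exceeded 3 counts in any library, Krt5 and Krt14 were at 0 at D0, and the sum was 10.3 normalized counts in untreated and 117.8 in FGF8-treated cells at D0, mainly from Epcam. It was thus highest in the library in which Areg was high, and its part in the ligand values was not tested. Of 5 macrophage markers, Adgre1 was at 0 in all 6 libraries and the sum was between 43.5 and 152.6, lowest in that same library. Of 4 basophil or mast cell markers, Mcpt8 had 29 counts in the FGF8 library of D0 and 0 in the other 5, as Areg was high in that library, while Cpa3 and Ms4a2 were at 0 there. The sum was 4.41 in untreated and 38.4 in FGF8-treated cells at D0. At D7 it was 131.3 in untreated and 395.1 in FGF8-treated cells, mainly from Kit, so that it was highest where Erbb3 was highest. The part of these markers in the Areg and Erbb3 values was not tested.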

How the data were processed

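RNA of 6 libraries (1 per treatment and day) was sequenced as paired reads from a stranded mRNA kit. The authors used Trim Galore for trimming, HISAT2 for alignment (GRCm39) and featureCounts for counting per gene, and the raw counts were deposited. Versions, annotation, strand setting and treatment of multi-mapped reads are not given in the sources used here. Groups follow the titles. Libraries held 16403254 to 38551551 counts over 26264 symbols, of which 91.0% were found in GENCODE M39, the source of positions and exon lengths.

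Counts were divided by DESeq2 (1.42.0) size factors. Fold changes used a pseudocount of 1, and counting intervals (95%) and the floor of 3 counts cover counting error only. Tests were the quasi-likelihood tests of edgeR (4.0.16, R 4.3.3) with TMM, filterByExpr and Benjamini-Hochberg adjustment over all genes tested. DESeq2, other scalings, filters, thresholds, blocks and left-out libraries were tried as alternatives.

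The EGF family genes and the pathway lists were chosen with earlier results of these data known. Pathway genes were named if they passed the 2-fold rule on any day or the shared test, at most 4 per list by their largest difference at D3 or D7, Egf by its place in a count of 3, and Adam12 after its values were seen. Pattern neighbours were the 5 highest correlations. A planned comparison of protein sequences was not run, and epithelial and other marker genes were read as summed levels.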

Additional observations from a re-analysis of the deposited data

Results flagged for a closer look

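For 4 ligands the FGF8 library was above the untreated one at D0 and below it on a later day, with counting intervals that excluded 0 on both sides. Ereg had log2 fold changes of 3.86 at D0, -2.86 at D3 and -2.65 at D7. Hbegf had 2.87 at D0 and -1.88 at D7. Tgfa had 1.24 at D0, -1.55 at D3 and -1.39 at D7, and Btc had 1.05 at D0 and -0.80 at D7. With 1 library per condition, the difference between days was not tested. The D0 values of Tgfa rest on 7 and 20 counts and the D7 values of Ereg and Hbegf on 3 and 6 counts in the FGF8 library.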

How the results depend on the processing

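No called value changed sign under any alternative that was run. Of the genes lower at D3, 3 (Nrg1, Egfr and Erbb2) were left with a mean of at least 100 and 1 (Ereg) under a 4-fold rule. At D7 a 1.5-fold rule gave 1 higher gene (Erbb3), and a 4-fold rule gave 0 lower. Scaling by total counts moved the median of all genes at D3 by -0.11. For the shared FGF8 effect, the counts of genes higher and lower were 569 and 1661. Genes higher numbered 241 with RLE factors and 1292 without a filter. Without a day block 0 were called in each direction, and with all 3 days 2 were higher and 150 lower. The fit on 4 libraries could not be repeated without a library, as no residual degree of freedom would remain. Over differentiation, leaving out each library in turn gave 926 to 4550 genes higher and 288 to 3904 lower for D3 against D0, 1900 to 4812 and 759 to 4358 for D7 against D0, and 0 to 1663 and 0 to 1575 for D7 against D3. Without the treatment block, 1671 genes fell to D3 and 2383 to D7, 2 were higher at D7 than at D3, and the calls of Erbb2 at D3 (edgeR adjusted p = 0.0864) and Egfr at D7 (0.285) were lost. D7 against D3 gave 864 higher and 476 lower with DESeq2, and 199 and 69 without a filter. DESeq2 added falls of Ereg (adjusted p = 0.000421 at D3, 1.23e-05 at D7) and Nrg1 (0.0435 and 0.0472). The cause was not tested. The day and treatment blocks are the paired fits, as each condition has 1 library and no replicate number pairs any. Low counts limit Areg after D0, Ereg and Hbegf at D7 and Tgfa at D0.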
